A study of Mus musculus with 27 samples.

Results

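The 44 genes described here, apart from the transcription coactivator Pprc1, encode proteins of ribosome production or the nucleolus. They were chosen by symbol and known function, with earlier results of these data known, and all 44 were among the 24000 genes listed in the count files. By known role they comprise 3 RNA polymerase I subunits, 3 core proteins of box C/D and 3 of box H/ACA small nucleolar ribonucleoproteins (snoRNPs), and 3 abundant nucleolar proteins or snoRNP chaperones. They further comprise 11 proteins of the small subunit processome, 5 later small subunit factors, 15 large subunit factors and 1 transcription coactivator, Pprc1. All 44 also passed the filter on low counts, as did 12073 genes in all.

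Ribosome production starts with the transcription of ribosomal DNA by RNA polymerase I. The precursor RNA is then methylated, pseudouridylated, cut and folded in the nucleolus by snoRNPs and assembly factors, and the subunits mature further on the way to the cytoplasm. The genes for these factors are textbook targets of the transcription factor MYC, and growth factors and cytokines are known to raise ribosome production in blood cells.

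The series measured polyA RNA in 27 libraries of Ba/F3 cells, an IL3-dependent mouse line described as pro-B, in 7 groups. Stimulated wild-type cells were starved of IL3 for 6 h before IL3 was added back at 10 ng/mL for 30 min (n = 5), and deprived wild-type cells were starved for 6 h only (n = 5). Lentiviral short hairpins against STAT5A, STAT5B, LSD1 or HDAC3 (n = 3 each), or without a target (n = 5), were carried by puromycin-selected cells that were starved and given IL3 in the same way. All cells were kept in IL3 at 1 ng/mL before starvation. STAT5A and STAT5B carry the signal of the IL3 receptor to the nucleus as transcription factors, and LSD1 (gene Kdm1a) and HDAC3 remove methyl and acetyl groups from histones. The labels do not say whether the replicates were separate cultures, so p-values measure the spread between these libraries, part of which may be technical.

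Depth ran from 5.48 to 33.8 M reads counted in genes per library. The libraries fell into 3 classes that the groups do not explain. In 5 hairpin libraries (HDAC3 1 and 2, LSD1 1, no-target 1 and 3), 14.0 to 24.9% of reads lay outside genes, against 8.70 to 12.0% in the other 22, and their depth was 5.48 to 7.53 M. In 4 others (STAT5A 3, STAT5B 2 and replicate 2 of both wild-type groups) the ratio of multiply aligned to counted reads was 0.177 to 0.190, against 0.200 to 0.295 in the remaining libraries. The targeted gene was at 32.7 to 38% of its no-target mean in the STAT5A, 25.3 to 31.2% in the STAT5B, 38.1 to 70.6% in the LSD1 and 34.1 to 63.7% in the HDAC3 libraries. Of 15 pro-B markers only Cd79a, Cd79b and Ptprc averaged 1 CPM or more in any group, while Pax5 peaked at 0.25, Ebf1 at 0.70 and Rag1 at 0.16 CPM in a single library. Of 6 erythroid or megakaryocyte markers, Gata1 ran from 110 to 452, Itga2b from 123 to 809 and Klf1 from 18.5 to 255 CPM over all libraries. Hba-a1 and Hbb-bs had no reads, and Pf4 peaked at 0.28 CPM.

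Levels are CPM, the reads of a gene per M reads counted in genes after scaling by edgeR's TMM factors, and they compare libraries within a gene. Between genes only CPM per kb of coding sequence is compared. On that scale Npm1, a nucleolar histone chaperone, was the most abundant member in stimulated wild-type cells at 1783, followed by Ncl (nucleolin) at 435, the box H/ACA protein Nhp2 at 352, the large subunit factor Nip7 at 211 and Polr1c, a subunit shared by RNA polymerases I and III, at 146. The lowest were Polr1a, the largest subunit of RNA polymerase I, at 7.20, Rrp12, a factor of small subunit export, at 6.41 and Utp20, a large processome scaffold, at 4.07. The members thus spanned a wide range of abundance in these cells.

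**Figure D1:**
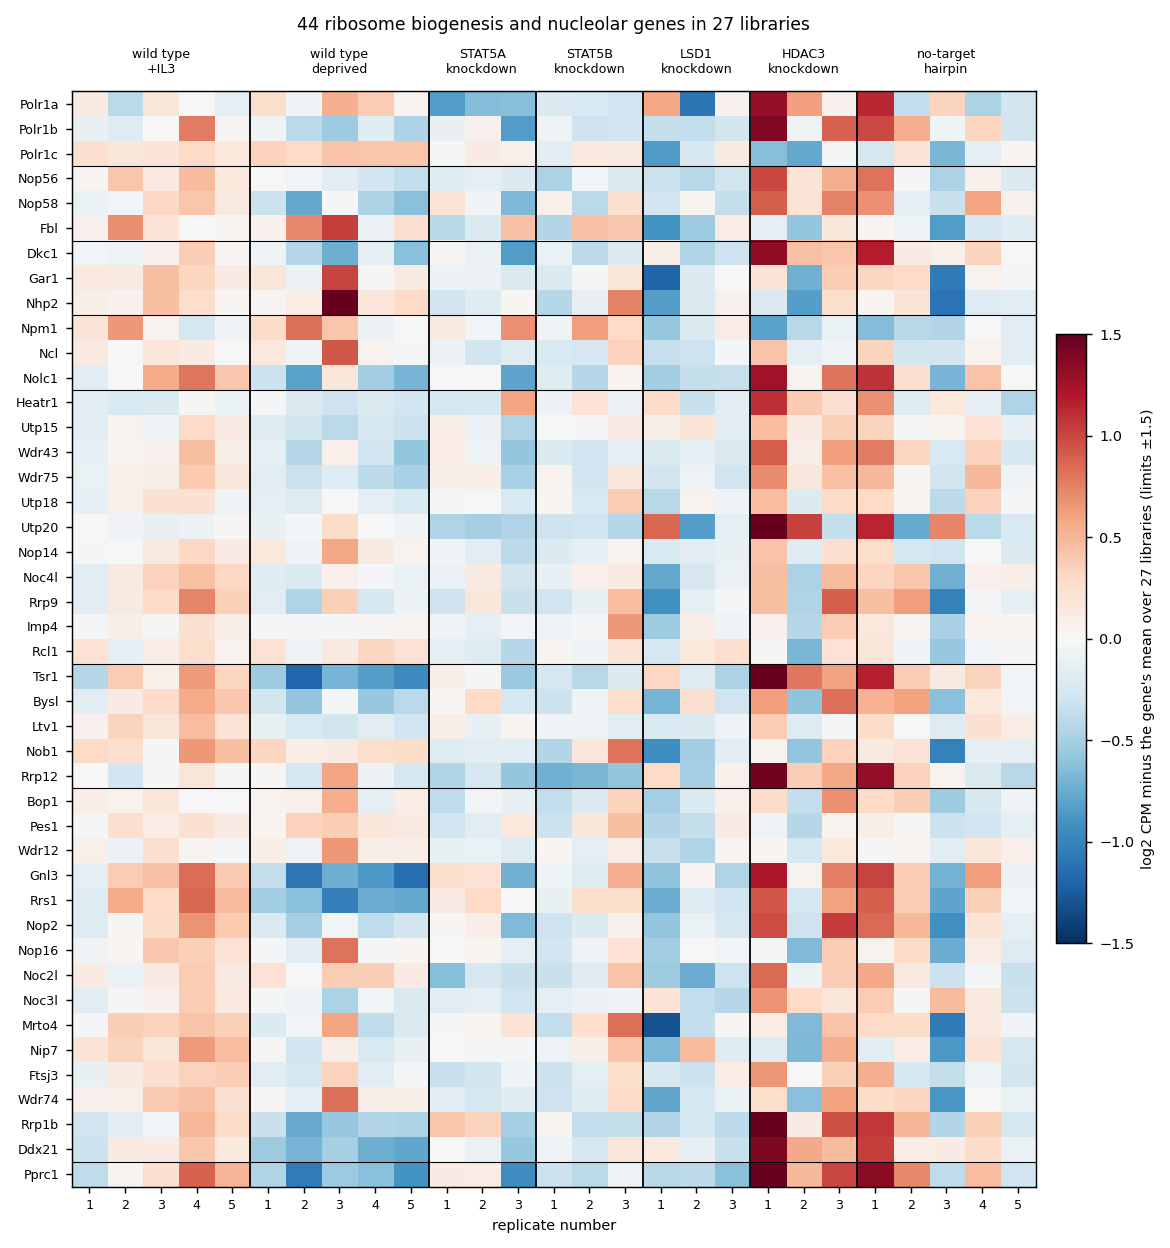
Level of each of the 44 genes (rows, grouped by role, same order as in the text from RNA polymerase I at the top to Pprc1 at the bottom) in each of 27 libraries (columns, by group and replicate), as log2 CPM minus the mean of that gene over all libraries. HDAC3 knockdown 1 and no-target 1 are red for most genes, no-target 3 and LSD1 knockdown 1 are blue for many, and Gnl3, Rrs1, Tsr1, Ddx21 and Pprc1 are blue in all 5 deprived wild-type libraries.

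The first comparison asked what 30 min of IL3 did to these genes in wild-type cells. In the fit of all 27 libraries 5 of the 44 genes were called higher and none lower, and all 5 were listed here as assembly factors. Gnl3 (nucleostemin, a nucleolar GTPase), Rrs1 and Ddx21 (a nucleolar RNA helicase) were placed here with the large subunit factors. Tsr1 and Ltv1 were placed with the late small subunit factors. RNA polymerase I subunits and the abundant proteins Npm1 and Ncl were not among the 5. The calls were made with edgeR's quasi-likelihood test over all 27 libraries at an adjusted p (Benjamini-Hochberg over all genes tested) under 0.05. Over all genes tested, 3.82% were called in this comparison, 3% higher and 0.82% lower. DESeq2 called 6 members, the same 5 and Pprc1, beside 5.25% of all genes. A fit within replicate numbers, described below, called 18 members, beside 22.4% of all genes. These included the snoRNP proteins Nop58, Nop56 and Dkc1, and Polr1a was lower.

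Gnl3 had 74.6, 107, 111, 147 and 108 CPM in the 5 stimulated libraries, against 63.9, 39.0, 49.2, 45.2 and 37.6 CPM in the deprived ones. Its lowest stimulated library lay above its highest deprived one. The mean was 109 ± 25.5 CPM in stimulated and 47.0 ± 10.6 CPM in deprived cells (SD, n = 5 each), a log2 fold change of 1.22 (SE 0.28, adjusted p = 0.0096 by edgeR).

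Rrs1, which is needed for large subunit maturation, had 41.1, 69.2, 57.8, 85.2 and 65.5 CPM in stimulated cells, against 32.8, 30.5, 23.2, 28.0 and 27.7 CPM in deprived cells. Every stimulated library was above every deprived one, with replicate 1 the closest. The log2 fold change of Rrs1 was 1.16 (SE 0.24, adjusted p = 0.0042 by edgeR), the smallest adjusted p among the members.

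Tsr1, a GTPase-like protein of late small subunit precursors, had 28.6, 50.2, 40.6, 59.8 and 47.9 CPM in stimulated cells, against 26.5, 16.9, 23.7, 21.6 and 19.8 CPM in deprived cells. Again replicate 1 came close to the deprived libraries and replicate 4 was highest. Tsr1 thus rose by a log2 fold change of 1.06 (SE 0.23, adjusted p = 0.0070 by edgeR). Of its exon bases, 34.2% are shared with Srr on the opposite strand, and with libraries that keep no strand the reads of both genes cannot be told apart there.

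Ddx21 had 118, 161, 161, 196 and 164 CPM in stimulated cells, against 102, 91.5, 105, 89.0 and 86.4 CPM in deprived cells. The groups did not overlap. The change was 0.75 on the log2 scale (SE 0.20, adjusted p = 0.029 by edgeR), and the call was lost without any 1 of 7 of the 10 wild-type libraries. Ltv1, a factor of small subunit export, had 53.9, 65.0, 58.4, 71.0 and 59.4 CPM in stimulated cells, against 47.7, 44.2, 42.5, 46.4 and 42.0 CPM in deprived cells. This was the smallest called rise, with a log2 fold change of 0.46 (SE 0.11, adjusted p = 0.014 by edgeR), and the groups did not overlap.

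Pprc1 is a transcription coactivator known for its part in mitochondrial gene expression and is not an assembly factor. It had 56.2, 75.1, 86.1, 135 and 104 CPM in stimulated cells, against 53.2, 35.2, 50, 47.3 and 39.3 CPM in deprived cells. All stimulated libraries were above all deprived ones, replicate 1 by a small margin. Its log2 fold change of 1.02 (SE 0.30) did not pass the threshold in the fit of all libraries (adjusted p = 0.056 by edgeR).

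**Figure D2:**
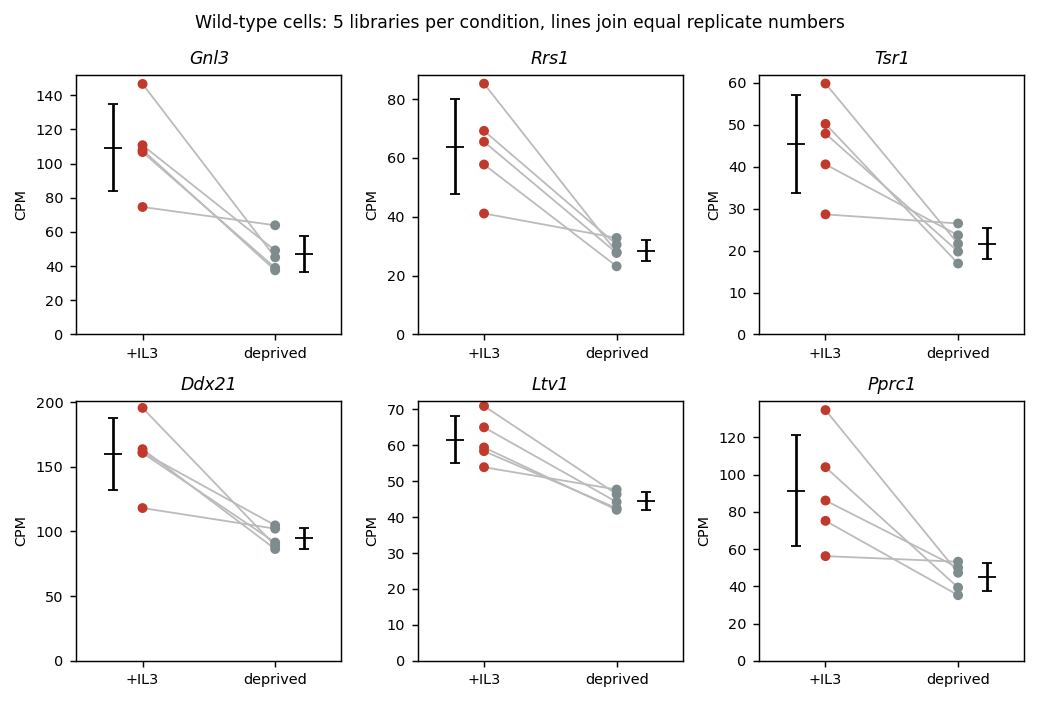
CPM of 6 genes in the 5 stimulated (left) and 5 deprived (right) wild-type libraries, with lines joining equal replicate numbers and bars for mean ± SD. Stimulated libraries are higher in every pair of these 6 genes, and the step is smallest in replicate 1, where Pprc1 had 56.2 CPM stimulated and 53.2 CPM deprived.

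Libraries with equal replicate numbers deviated together in wild type, so the comparison was also fitted within replicate numbers. With this replicate block 18 of the 44 genes passed, 17 higher and 1 lower, beside 22.4% of all genes, 13.3% higher and 9.09% lower. The 6 smallest adjusted p-values were those of Rrs1 (0.0048), Gnl3 (0.0073), Ltv1 (0.0074), Ddx21 (0.0074), the box C/D protein Nop58 (0.0094) and Tsr1 (0.014), all edgeR quasi-likelihood tests with Benjamini-Hochberg adjustment. Pprc1 passed as well, with a log2 fold change of 0.97 (SE 0.19, adjusted p = 0.014). The 1 member that fell was Polr1a. The fit with the block also left out the hairpin libraries. A fit of only the 2 wild-type groups without replicate numbers called 15 members (1170 of all genes). The count of calls thus depended on which libraries were fitted as well as on the use of replicate numbers. The median over the 44 genes was 0.25 both in the fit of all libraries and with the block.

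Taken pair by pair, 18 members were higher with IL3 in all 5 same-numbered pairs and 5 were lower in all 5, against 19.9% and 23.5% of all genes tested. The 5 lower ones were Polr1a, Polr1c, Npm1, the processome protein Rcl1 and Wdr12, which belongs to a large subunit complex with Pes1 and Bop1. The pairs differed in how far the 44 genes moved. The median log2 ratio over the members was 0.45 in pair 4, 0.38 in pair 5 and 0.24 in pair 2, but 0.02 in pairs 1 and 3. In pair 3 the deprived library stood apart, as described below for Ncl and Nhp2.

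Over the 44 genes the median log2 fold change was 0.25, with 29 above and 15 below 0, against a median of -0.02 over all genes tested, of which 47% were above 0. The later small subunit factors had a median of 0.46, and 4 of 5 were above 0. The large subunit factors had a median of 0.26 with 11 of 15 above 0, and the processome had 0.22 with 8 of 11 above 0. Of 3 genes each, the median was 0.42 for the box C/D proteins, -0.07 for the box H/ACA proteins, -0.17 for the RNA polymerase I subunits and -0.17 for the abundant proteins and chaperones, with 2, 1, 1 and 1 of 3 above 0. These are descriptions of lists whose genes share the same libraries, and no difference between roles was tested.

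Of the snoRNP proteins, the box C/D protein Nop56 had 124, 163, 134, 169 and 136 CPM in stimulated cells, against 121, 119, 109, 99.9 and 94.0 CPM in deprived cells, without overlap. For Nop56 the log2 fold change was 0.42 (SE 0.18, adjusted p = 0.26 by edgeR, and 0.022 with the replicate block). Fbl, the methyltransferase of the same box C/D particle, had 112, 173, 123, 107 and 109 CPM in stimulated cells, against 111, 175, 219, 100 and 127 CPM in deprived cells. These groups overlapped, and replicate 2 was high in both. No difference between Nop56 and Fbl was tested.

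Of the box H/ACA proteins, the pseudouridine synthase Dkc1 had a log2 fold change of 0.45. It did not pass in the fit of all libraries but did with the replicate block (adjusted p = 0.022 by edgeR). Nhp2 had 151, 148, 194, 170 and 145 CPM in stimulated cells, against 146, 153, 470, 159 and 175 CPM in deprived cells. Deprived replicate 3 alone was high, and without it the log2 fold change of Nhp2 was 0.04, against -0.45 (SE 0.30) with all libraries.

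Npm1 and Ncl, the most abundant members, did not pass in either fit. Npm1 had 1614, 2214, 1454, 1172 and 1354 CPM in stimulated cells, against 1697, 2501, 1884, 1322 and 1410 CPM in deprived cells. Both groups were highest in replicate 2, and every stimulated library was below the deprived library of its number. The log2 fold change was -0.17 (SE 0.21, adjusted p = 0.78 by edgeR). Ncl had 954, 864, 987, 944 and 867 CPM in stimulated cells, against 969, 834, 1662, 904 and 855 CPM in deprived cells. Apart from deprived replicate 3 the groups covered the same range. The chaperone Nolc1, which binds snoRNPs, averaged 220 ± 58.9 CPM in stimulated and 130 ± 37.4 CPM in deprived cells (SD, n = 5 each). Nolc1 did not pass in the fit of all libraries but did with the block.

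None of the 3 RNA polymerase I subunits passed in the fit of all libraries. Polr1a had 41.7, 28.6, 42.8, 38 and 34.3 CPM in stimulated cells, against 45.4, 36.2, 54.9, 49.2 and 39.3 CPM in deprived cells. It was lower in each pair although the groups overlapped, with a log2 fold change of -0.28 (SE 0.28) and, with the replicate block, -0.27 (SE 0.07, adjusted p = 0.028 by edgeR). Polr1c had 155, 148, 150, 160 and 147 CPM in stimulated cells, against 167, 161, 177, 175 and 175 CPM in deprived cells. These groups did not overlap, but the log2 fold change of -0.17 (SE 0.16) did not pass in either fit. Polr1b had 29.9, 28.1, 32.2, 55.1 and 32.6 CPM in stimulated cells, against 31.1, 24.4, 22.2, 28.3 and 23.4 CPM in deprived cells, where stimulated replicate 4 alone was far above the rest.

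Of the 44 genes, 11 were higher in stimulated than in deprived cells without overlap between the groups, where 6.73% of all genes were, and 1, Polr1c, was lower, where 4.51% were. At an unadjusted p under 0.05 there were 15 higher and 0 lower, against 8.66% and 5.34% of all genes.

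**Figure D3:**
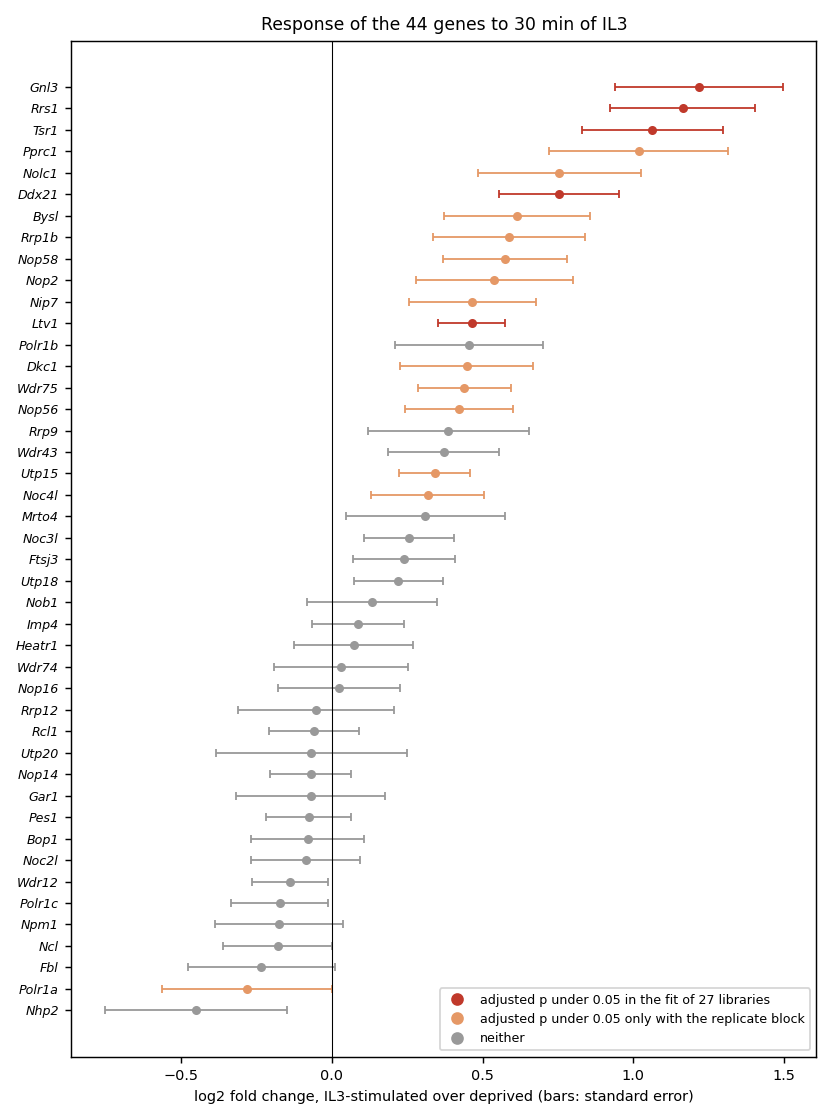
Log2 fold change of each of the 44 genes, stimulated over deprived wild type, with its standard error, ordered by size. Red genes passed in the fit of 27 libraries, orange genes only with the replicate block, and grey genes in neither; values run from 1.22 for Gnl3 to -0.45 for Nhp2.

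A list of 112 other ribosome biogenesis genes served for comparison, also chosen with earlier results of these data known. In it 8 genes were called higher with IL3 and 0 lower, where 3% and 0.82% of all genes tested were. The 8 included Rrp8 (log2 fold change 0.85), Mak16 (0.93), Gtpbp4 (0.86) and the large subunit export adaptor Nmd3 (0.84). The median over the 112 genes was 0.08, and 67 were above 0, where 47% of all genes tested were. Myc itself had 1308, 1027, 1227, 1433 and 1322 CPM in stimulated cells, against 165, 80.1, 68.3, 137 and 110 CPM in deprived cells. Stimulated replicate 4 was the highest for Myc and also for Gnl3, Rrs1, Tsr1, Ddx21, Ltv1 and Pprc1. Stimulated replicate 1 was the lowest for those same genes but not for Myc, which was lowest in replicate 2. No link between Myc and these genes was tested.

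The regions around the start sites of the responding genes are shown because MYC is known to bind the E-box CACGTG and STAT5 the motif TTCNNNGAA. Both motifs are palindromes, so a match counts for both strands. The windows hold 250 bases before and 50 after the start given by RefSeq (GRCm38.p6), and 39 of the 44 members had one; Rrs1 had none. Capitals mark a motif match, and the sequences of Gnl3 and Ddx21 have none.

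Tsr1, chr11:74897830-74898129, plus strand: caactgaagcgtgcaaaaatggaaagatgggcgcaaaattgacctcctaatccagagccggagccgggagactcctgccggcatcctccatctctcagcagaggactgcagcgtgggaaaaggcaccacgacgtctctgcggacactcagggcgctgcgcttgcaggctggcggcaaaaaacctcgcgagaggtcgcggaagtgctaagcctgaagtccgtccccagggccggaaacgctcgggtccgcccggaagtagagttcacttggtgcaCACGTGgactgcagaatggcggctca
Ltv1, chr10:13193088-13193387, minus strand: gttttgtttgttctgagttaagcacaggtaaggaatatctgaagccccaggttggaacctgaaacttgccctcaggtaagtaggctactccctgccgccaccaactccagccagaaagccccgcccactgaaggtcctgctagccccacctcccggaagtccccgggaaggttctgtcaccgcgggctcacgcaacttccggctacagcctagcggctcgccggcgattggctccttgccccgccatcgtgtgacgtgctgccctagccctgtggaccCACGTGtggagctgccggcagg
Gnl3, chr14:31019082-31019381, minus strand: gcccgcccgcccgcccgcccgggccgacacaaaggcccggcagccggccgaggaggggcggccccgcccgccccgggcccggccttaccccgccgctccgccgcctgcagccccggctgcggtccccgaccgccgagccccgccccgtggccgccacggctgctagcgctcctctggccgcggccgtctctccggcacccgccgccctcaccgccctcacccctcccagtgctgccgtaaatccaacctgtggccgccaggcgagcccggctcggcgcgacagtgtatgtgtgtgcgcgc
Ddx21, chr10:62602249-62602548, minus strand: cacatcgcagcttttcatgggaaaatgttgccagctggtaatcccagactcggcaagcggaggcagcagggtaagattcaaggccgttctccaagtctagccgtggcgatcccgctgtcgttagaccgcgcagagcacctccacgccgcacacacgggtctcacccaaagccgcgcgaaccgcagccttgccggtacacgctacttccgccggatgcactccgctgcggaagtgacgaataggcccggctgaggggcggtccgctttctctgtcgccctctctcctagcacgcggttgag
Pprc1, chr19:46056289-46056588, plus strand: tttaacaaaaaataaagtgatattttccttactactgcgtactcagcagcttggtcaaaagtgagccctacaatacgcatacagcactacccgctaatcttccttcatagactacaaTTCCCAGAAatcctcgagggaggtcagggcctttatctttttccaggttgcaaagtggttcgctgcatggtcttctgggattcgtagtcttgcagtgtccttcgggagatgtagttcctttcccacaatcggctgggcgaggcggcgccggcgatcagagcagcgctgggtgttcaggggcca

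In these windows the E-box began 24 bases after the start in Tsr1 and 28 bases after it in Ltv1. The STAT5-type motif lay 133 bases before the RefSeq start in Pprc1. In the GENCODE vM21 annotation used below, Pprc1 begins upstream of this window, at chr19:46044886. Over the members with a window, 8 (20.5%) held the E-box, against 8.09% of all 27025 genes with a window and 11.6% of the tested genes. The 8 were Tsr1, Ltv1, Imp4, Nop2, Pes1, Utp18, Utp20 and Wdr43. The STAT5-type motif was found in 6 members (15.4%), against 9.55% of all and 8.55% of tested genes. The median IL3 log2 fold change was 0.30 in members with the E-box and 0.31 in those without, and 0.40 in members with the STAT5-type motif and 0.24 in those without. Neither pair was tested. A match describes the letters of a window and no binding was measured.

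Several members are host genes for small nucleolar RNAs, which are cut from their introns. By the GENCODE vM21 annotation (mm10), 7 of the 44 (15.9%) contain snoRNA genes on the same strand, 21 snoRNA genes in all, against 2.32% of tested genes matched to the annotation. Nop56 holds 5, Nop58 4, Gnl3, Ncl and Wdr43 3 each, Tsr1 2 and Dkc1 1. The median IL3 log2 fold change was 0.45 over these 7 and 0.13 over the other members. Gnl3 (chr14:31012433-31019152, minus strand) spans 6.72 kb, Rrs1 (chr1:9545408-9547455, plus strand) 2.05 kb, and the median span of the members was 13.4 kb, against 21.4 kb over tested genes.

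The knockdown comparisons asked whether STAT5A, STAT5B, LSD1 or HDAC3 affected these genes in stimulated cells, each against the no-target hairpin. None of the 44 genes passed in any of the 4 comparisons with edgeR, and none with DESeq2, beside 0.238% of all genes called by DESeq2 for STAT5A, 1.13% for STAT5B, 0.414% for LSD1 and 0.0389% for HDAC3. The 4 comparisons share the same 5 no-target libraries. Those differed widely among themselves, which the values of Pprc1 show, at 186, 121, 55.9, 101 and 59.5 CPM in no-target 1 to 5. The median deviation of the 44 genes from their mean over all libraries was 0.41 in no-target 1 and -0.41 in no-target 3 on the log2 scale.

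**Figure D4:**
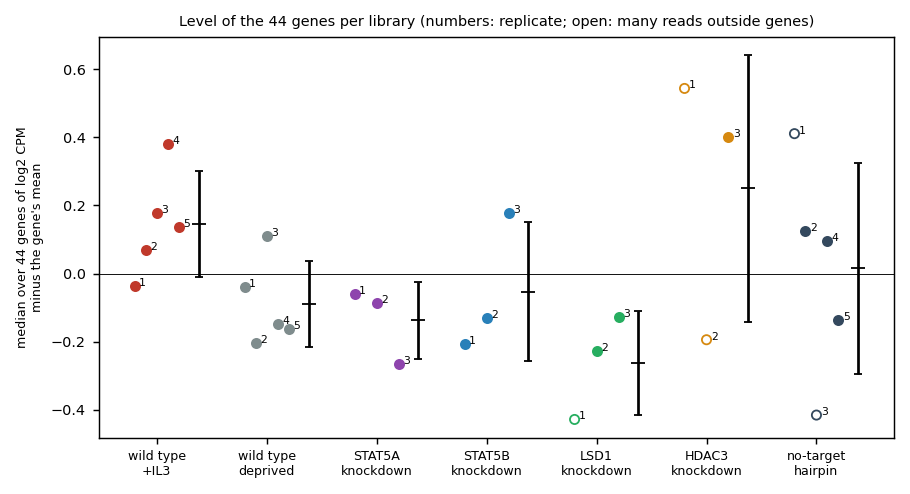
Median over the 44 genes of log2 CPM minus the mean of each gene, 1 point per library with its replicate number, and mean ± SD per group; open points are the 5 libraries with many reads outside genes. LSD1 knockdown libraries lie at -0.43 to -0.13 and HDAC3 knockdown libraries at -0.19 to 0.54, while no-target libraries cover -0.41 to 0.41.

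In STAT5A knockdown cells no member passed the test, beside 0.0663% of all genes. At an unadjusted p under 0.05 there were 6 members lower (Ddx21, Dkc1, Polr1a, Polr1b, Rrp12 and Tsr1), against 4.93% of all genes, and 1 higher (Npm1), against 3.49%. The median log2 fold change was -0.17, with 35 of 44 below 0, against -0.004 over all genes, of which 50.5% were below 0. Polr1a had 21.3, 24.1 and 24.4 CPM in STAT5A knockdown, against 83.1, 29.4, 47.6, 27.3 and 31.4 CPM in no-target cells. It was the 1 member without overlap, beside 2.28% of all genes, and the no-target libraries with many reads outside genes, 1 and 3, were the highest. The log2 fold change was -0.91 (SE 0.34, adjusted p = 0.56 by edgeR), and without those libraries it was -0.33.

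Rrp12 had 18.3, 21.1 and 16.8 CPM in STAT5A knockdown, against 62.4, 31.8, 26, 21.6 and 18.8 CPM in no-target cells. The groups overlapped, and no-target 1 was the highest library by far. The value for Rrp12 was -0.77 (SE 0.31) on the log2 scale, and -0.35 without the libraries rich in reads outside genes. Npm1 was the member with the largest positive value, at 0.61 (SE 0.24, adjusted p = 0.57 by edgeR). It had 1539, 1368 and 2254 CPM in STAT5A knockdown, against 897, 1054, 1039, 1402 and 1246 CPM in no-target cells. STAT5A 3, one of the 4 libraries with few multiply aligned reads, was the highest, and within the 18 libraries in neither of the unusual classes the value was 0.24. Fbl had 80.0, 92.2 and 144 CPM in STAT5A knockdown, against 109, 101, 59.7, 89.5 and 93.3 CPM in no-target cells, and its positive value of 0.22 turned to -0.07 without STAT5A 3.

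STAT5B knockdown likewise gave 0 calls, beside 0.34% of all genes. At an unadjusted p under 0.05 there were 5 members lower (Dkc1, Pprc1, Rrp12, Tsr1 and Wdr43), against 8.19% of all genes, and 1 higher (Npm1), against 7.75%. These shares were near the background. The median log2 fold change was -0.05, with 31 of 44 below 0, against -0.01 over all genes, of which 51.2% were below 0. Rrp12 had 15.2, 15.6 and 16.7 CPM in STAT5B knockdown, all below the 5 no-target values given above. This was the lowest member, at a log2 fold change of -1.01 (SE 0.31, adjusted p = 0.16 by edgeR), and -0.60 without the libraries rich in reads outside genes. In all, 3 members (Dkc1, Tsr1 and Rrp12) were lower without overlap, beside 2.82% of all genes.

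Npm1 had 1355, 2181 and 1734 CPM in STAT5B knockdown, highest in STAT5B 2, another library with few multiply aligned reads. Its log2 fold change against the no-target hairpin was 0.64 (SE 0.24, adjusted p = 0.25 by edgeR). Fbl had 78.9, 145 and 141 CPM in STAT5B knockdown, overlapping the no-target range of 59.7 to 109 CPM. In the list of 112 further genes, Rbm28, a nucleolar RNA-binding protein, fell with a log2 fold change of -0.89 (SE 0.13, adjusted p = 0.0012 by edgeR). Between STAT5A and STAT5B knockdown no member passed with edgeR (0.0248% of all genes did) or with DESeq2 (0.0584%), and 0 had an unadjusted p under 0.05, beside 3.39% of all genes. Without overlap 4 members were lower in STAT5A knockdown and 1 was higher, beside 3.68% and 3.4% of all genes. Polr1a was one of the lower ones, at the values above for STAT5A and 32.6, 32.4 and 30.9 CPM for STAT5B knockdown, with a log2 fold change of -0.46 (SE 0.37). The summed CPM of 10 myeloid markers was 41.1 to 306 (median 42.5) in STAT5A and 90.5 to 467 (median 441) in STAT5B knockdown. In no-target cells it was 7.69 to 137 (median 30.2). Only the highest STAT5A library lay above the no-target range. The part of these markers in the values above was not tested.

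LSD1 knockdown put most members below the no-target mean, but none passed, beside 0.166% of all genes. At an unadjusted p under 0.05 there were 10 members, all lower, against 2.32% of all genes that were lower. The median log2 fold change was -0.35, with 41 of 44 below 0, against -0.02 over all genes, of which 52.7% were below 0. In the 112 further genes the median was -0.18, with 92 below 0. Without no-target 1 the median of the 44 genes was -0.22, and without LSD1 knockdown 1 it was -0.21. The summed CPM of 6 mast cell or basophil markers was 100 to 727 in LSD1 knockdown, against 17.2 to 60.8 in no-target cells, with 4 of the 6 averaging 1 CPM or more in both groups. That of the 10 myeloid markers was 136 to 353, against 7.69 to 137. Of these 10, 4 averaged 1 CPM or more in LSD1 knockdown and 5 in no-target cells. The part of either marker set in the values of the members was not tested.

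Pprc1 had 54.5, 55.7 and 47.1 CPM in LSD1 knockdown, all below the lowest no-target library at 55.9 CPM, the 1 member without overlap beside 1.09% of all genes. Its log2 fold change was -0.99 (SE 0.35, adjusted p = 0.47 by edgeR). Nolc1 had 119, 133 and 135 CPM in LSD1 knockdown, against 363, 202, 106, 230 and 172 CPM in no-target cells. The groups overlapped through no-target 3 alone, and the log2 fold change was -0.73 (SE 0.32, adjusted p = 0.64 by edgeR). Npm1 at 0.12 and Rcl1 at 0.14 were among the 3 members above 0, both far within their errors.

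HDAC3 knockdown gave the opposite picture of signs, also with 0 calls, beside 0.0248% of all genes. The median log2 fold change was 0.25, with 37 of 44 above 0, against 0.00 over all genes, of which 50% were above 0. The median was 0.12 without HDAC3 1 and 0.48 without HDAC3 2. At an unadjusted p under 0.05 there were 7 members, all higher, against 2.48% of all genes that were higher. Pprc1 had 268, 102 and 146 CPM in HDAC3 knockdown, within or above the no-target range, and a log2 fold change of 0.72 (SE 0.34, adjusted p = 0.86 by edgeR). Without HDAC3 1 it was 0.25. The summed CPM of the mast cell or basophil markers was 15.8 to 24.7 in HDAC3 knockdown, against 17.2 to 60.8 in no-target cells, and its part in these values was not tested.

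Utp20 had 101, 71.7 and 27.4 CPM in HDAC3 knockdown, against 77.4, 20.9, 58.3, 26.5 and 30.0 CPM in no-target cells. In both groups the libraries rich in reads outside genes were the high ones, and LSD1 knockdown 1 of the same class had 63.7 CPM, while the 22 other libraries lay at 19.8 to 42.3 CPM. Without that class the log2 fold change of Utp20 was 0.08, against 0.65 (SE 0.36) with all libraries. Polr1c had 84.1, 77.2 and 130 CPM in HDAC3 knockdown, against 109, 150, 81.9, 119 and 135 CPM in no-target cells, and was low in both groups in libraries of that class. Utp20 and Polr1a are the members with the longest spans, 80.2 and 75.9 kb, and Polr1c spans 4.13 kb. The part of span in these levels was not tested.

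LSD1 and HDAC3 knockdown were then compared directly, which tests whether the effects of both hairpins differ without use of the shared controls. Here 2 of the 44 genes passed, Pprc1 and Nop56, both lower in LSD1 knockdown, beside 0.82% of all genes, 0.638% higher and 0.182% lower. DESeq2 called 10 members, all lower, beside 2.68% of all genes. The median over the 44 genes was -0.57, with 41 below 0, against 0.001 over all genes, and the median of the 112 further genes was -0.28.

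Pprc1 had 54.5, 55.7 and 47.1 CPM in LSD1 knockdown, against 268, 102 and 146 CPM in HDAC3 knockdown. The LSD1 libraries lay close together and the HDAC3 libraries far apart. The log2 fold change was -1.72 (SE 0.39, adjusted p = 0.039 by edgeR). Nop56 had 97.0, 90.8 and 101 CPM in LSD1 knockdown, against 244, 139 and 178 CPM in HDAC3 knockdown, again without overlap. This gave a log2 fold change of -0.96 (SE 0.23, adjusted p = 0.048 by edgeR).

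Rrp1b, a nucleolar large subunit factor, came next, with 31.5, 35.7 and 32.7 CPM in LSD1 knockdown, against 121, 46.7 and 83.2 CPM in HDAC3 knockdown. Its log2 fold change of -1.33 (SE 0.33) missed the threshold (adjusted p = 0.054 by edgeR). In all, 14 members were lower in LSD1 than in HDAC3 knockdown without overlap, beside 4.82% of all genes, and 20 had an unadjusted p under 0.05, all lower, beside 6.87% of all genes that were lower. They included Polr1b, Dkc1, Nop58, Nolc1, Tsr1, Gnl3, Noc2l and Ddx21 among both counts.

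Both calls depended on which libraries entered. No member passed without HDAC3 1, without HDAC3 3, without LSD1 2 or without LSD1 3, nor without the libraries rich in reads outside genes, which left 2 LSD1 libraries and 1 HDAC3 library whose spread is assumed to be that of other groups. The value of Pprc1 was then -1.51 and that of Nop56 -0.89. With all libraries and a term for library class 3 members passed, Pprc1 (adjusted p = 0.041), Nop56 (0.046) and Rrp1b (0.044), by edgeR. The summed CPM of the mast cell or basophil markers was 100 to 727 in LSD1 knockdown, against 15.8 to 24.7 in HDAC3 knockdown, and that of the myeloid markers was 136 to 353, against 7.64 to 35.0. Their part in the difference was not tested.

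**Figure D5:**
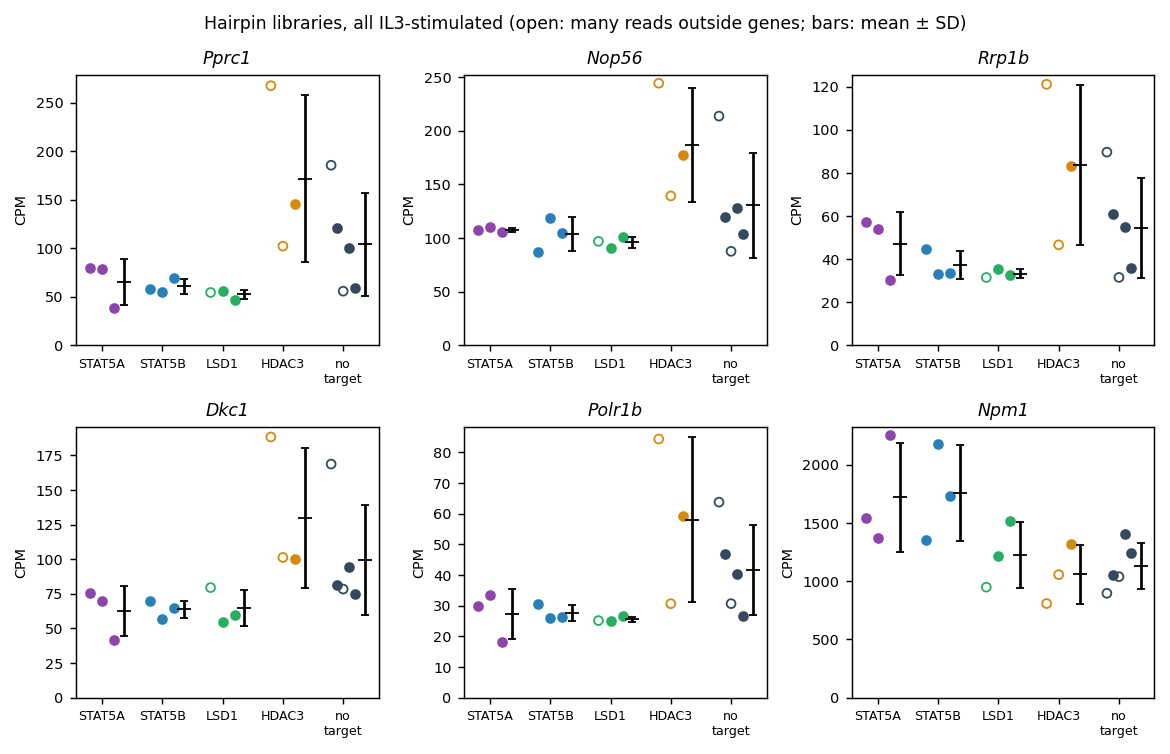
CPM of 6 genes in the hairpin libraries, all stimulated with IL3, with mean ± SD per group; open points are libraries with many reads outside genes. For Pprc1, Nop56 and Rrp1b the 3 LSD1 points sit below all 3 HDAC3 points, and the HDAC3 and no-target groups are the most spread.

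The no-target hairpin was compared with stimulated wild type to see what the hairpin procedure itself did. No member passed with edgeR or DESeq2, beside 0% of all genes with edgeR and 0.965% with DESeq2. At an unadjusted p under 0.05 there were 4 members, Nip7, Nob1, Npm1 and Polr1c, all lower with the hairpin, against 5.86% of all genes that were lower. Nip7 had 78.0, 95.3, 48.4, 102 and 73.5 CPM in no-target cells, against 101, 111, 99.8, 137 and 121 CPM in stimulated wild type. No-target 3 was the lowest and the groups overlapped by a little, with a log2 fold change of -0.52 (SE 0.21, adjusted p = 0.25 by edgeR).

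Nob1, the nuclease that trims small subunit RNA, had 82.0, 86.7, 37.1, 68.4 and 67.9 CPM in no-target cells, against 91.9, 88.8, 75.8, 118 and 102 CPM in stimulated wild type, also lowest in no-target 3. Dkc1 went the other way through a single library, with 169, 81.0, 78.4, 94.4 and 74.7 CPM in no-target cells, against 72.6, 71.1, 78.1, 96.6 and 76.1 CPM in stimulated wild type. The median over the 44 genes was -0.09, with 29 below 0, against 0.01 over all genes, of which 48.7% were below 0.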

How the data were processed

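PolyA RNA of Ba/F3 cells was sequenced from TruSeq RNA v2 libraries, which keep no strand. The authors deposited raw counts for each gene symbol in every library. The submitters' processing notes name mm10, HTSeq 0.5.4p5, DESeq2 1.2, TopHat2 2.0.10 and Trimmomatic 0.30. The sequence in which they were run, the counting mode and the annotation are not given in the sources used here. The 5 summary lines stayed out of library sizes and tests.

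All 27 libraries entered 1 edgeR quasi-likelihood fit (R 4.3.3, edgeR 4.0.16, limma 3.58.1; robust, TMM factors, filterByExpr, group means, no covariate) with 8 comparisons. A call needed a Benjamini-Hochberg adjusted p under 0.05 over the 12073 genes tested, at any fold. The replicate block refitted the 2 groups compared with the replicate number as a factor (11195 genes for IL3). In wild type all 5 same-numbered pairs deviated together (r 0.37 to 0.72), so the block is given beside IL3 results. The numbers come from the labels. No 2 libraries of a group were copies (chi-square per degree of freedom 10.4 to 164 over 42 pairs). Fitting was tested on simulated data.

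The members and lists were chosen with earlier results of these data known. Values per library are given for members called in any comparison and for 8 further members named by role. They are also given for most of the 2 highest and 2 lowest per comparison. Of these extremes, Rcl1 has none, and Npm1, Polr1c, Pprc1, Rrp12, Nob1 and Rrp1b lack them in some comparisons. Alternatives were RLE factors, no filter, DESeq2 1.42.0, a fit of only 2 groups, the block, terms for or subsets of library classes, leaving out each library, and a threshold of 0.01. Depth was 5.48 to 33.8 M counted reads. Spans, coding lengths and snoRNA genes came from GENCODE vM21, promoter windows from RefSeq (GRCm38.p6).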

Additional observations from a re-analysis of the deposited data

Results flagged for a closer look

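In 69 groups of 5 libraries, a library far from the other 4 was sought. These were 22 members and the median over all members, in 3 groups each. Chance alone marks about 1 in 20 independent groups. Here the genes share libraries, and several of the 22 members were named for extreme fold changes in these data, so that rate need not hold. Deprived wild type 3 stood high for Nhp2 (470.0 CPM, against 146 to 175 in the other 4), Ncl (1662, against 834 to 969), Rrp12 (37.8, against 21.0 to 25.4) and Utp20 (42.3, against 32.5 to 35.2). No-target 1 stood high for Ddx21 (302.8 CPM, against 138 to 179), Dkc1 (168.8, against 74.7 to 94.4) and Tsr1 (85.9, against 37.3 to 49.8); it is one of the libraries with many reads outside genes. Stimulated wild type 4 stood high for Polr1b (55.1 CPM, against 28.1 to 32.6) and Dkc1 (96.6, against 71.1 to 78.1), and stimulated wild type 2 for Fbl (173 CPM, against 107 to 123).

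The effects of the LSD1 and HDAC3 hairpins differed for Pprc1 (log2 fold change -1.72) and Nop56 (-0.96) in the direct test of edgeR, with LSD1 lower in 3 of 3 libraries of each, as given in the report with the settings under which these calls were lost.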

How the results depend on the processing

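The count of members called with IL3 was 5 (461 of all genes); it was 15 in a fit of only the 2 groups (1170), 18 with the replicate block (2504), 12 without the 5 libraries rich in reads outside genes (876), and 3 at a threshold of 0.01 (252). It was 5 with RLE factors (476 of all genes), 4 without a filter (363) and 6 with DESeq2 (685). With a term for library class it was 7 (978), and within the remaining libraries 7 (450). Leaving out 1 library gave 3 to 6, with 3 without stimulated wild type 4. For LSD1 against HDAC3 knockdown the count was 2 (99); it was 10 with DESeq2 (318), 3 with RLE factors (105), 3 with a term for library class (198) and 0 without a filter (50), in a fit of only the 2 groups (0), with the replicate block (11), without the libraries rich in reads outside genes (18), within the 18 remaining libraries (8) and at a threshold of 0.01 (7), and 0 to 5 with 1 library left out. The other 6 comparisons gave 0 under every alternative run. Outside wild type, equal replicate numbers did not pair the libraries, and the block gave 0 calls among the members in each of those 7 comparisons.

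Over left-out libraries the medians of the members ran from 0.19 to 0.33 for IL3, -0.29 to -0.10 for STAT5A, -0.21 to 0.02 for STAT5B, -0.46 to -0.21 for LSD1, 0.12 to 0.48 for HDAC3, -0.22 to -0.01 for the no-target hairpin against wild type, -0.17 to 0.02 for STAT5A against STAT5B and -0.77 to -0.39 for LSD1 against HDAC3. The sign for STAT5B turned without no-target 1 (0.02) or STAT5B 1 (0.02), and for STAT5A against STAT5B without STAT5B 3 (0.02).

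Of 768 log2 fold changes of single genes under alternatives, 700 kept direction and side of the threshold, 32 lost it, 15 gained it and 21 turned in sign; the cause was not tested. With 1 library left out, IL3 values ran from -0.236 to 0.0563 for Ncl and -0.555 to 0.0359 for Nhp2 (turned without deprived 3) and from -0.325 to 0.000529 for Npm1 (without deprived 2). Likewise Fbl in STAT5A knockdown ran from -0.0692 (without STAT5A 3) to 0.409, Npm1 in LSD1 knockdown from -0.0747 (without LSD1 3) to 0.277, and Npm1 in HDAC3 knockdown from -0.285 to 0.0715 (without HDAC3 1), with 0.00236 without no-target 4. Rrp12 in no-target cells against wild type ran from -0.00925 (without no-target 1) to 0.517, and Polr1c for LSD1 against HDAC3 from -0.0820 (without LSD1 3) to 0.452. With a term for library class, the values were -0.151 for Fbl, 0.0174 for Npm1 in HDAC3 knockdown, -0.00736 for Rrp12 and -0.0391 for Polr1c. Within the remaining libraries they were -0.134, 0.102, -0.121 and -0.0217 in that order. Without the libraries rich in reads outside genes, Npm1 was at 0.0930, Rrp12 at -0.0618 and Polr1c at -0.0249, and with the replicate block Npm1 in HDAC3 knockdown was at 0.0694.

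With 3 to 5 libraries per group, and 5.48 to 7.53 M reads in the shallowest class, depth and the number of libraries limit the precision of the hairpin comparisons, as does the spread between no-target libraries of like depth.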
